A study of Mus musculus with 2 samples.

Results

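Heart development transcription factors are here 41 genes, chosen by name for their known roles and placed by their RefSeq spans on the mm10 mouse build. The choice was made with earlier results of these data known, so it was not blind to them. They are 41 of 21883 protein-coding genes of the RefSeq table. The data are 2 lists of peaks from chromatin immunoprecipitation and sequencing (ChIP-seq) of the vitamin D receptor (VDR) in the left ventricle of mouse embryos at E16.5. One library came from embryos of mothers on a normal diet and the other from embryos of mothers on a vitamin D deficient diet. The labels name no strain, sex, age of the mother or number of pooled embryos. With 1 library for each of the 2 diets there is no replicate spread and no test, and every comparison describes 2 libraries. A peak was assigned to a gene when its summit, the position of highest coverage, lay inside the gene span or within 10 kb of either end. A peak is called shared where at least 1 bp of it lay under a peak from the other library, which is then its partner.

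VDR is a nuclear receptor that binds DNA as a partner of the retinoid X receptor, typically at a pair of hexamer half-sites, and its activity depends on the hormone form of vitamin D. The transcription factors examined here act in a network that builds the heart. GATA, Nkx2-5, T-box, Hand and Mef2 proteins bind the regulatory DNA of heart muscle genes and of each other. Iroquois factors pattern the ventricles, NFAT and Tbx20 act in the valves and endocardium, and Wt1, Tbx18 and Tcf21 mark the epicardium. Peak lists hold no expression levels, so the tissue label could not be checked against marker transcripts.

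Each peak is described by its summit pileup, the count of fragments that cover this position, and by the -log10 of the authors' q-value, a p-value adjusted for multiple testing. Background over the genome, recovered from the deposited values, came to 2.65 fragments for the normal-diet library and 5.38 for the deficient-diet library. Pileups are therefore not compared between lists. The number of reads per library was not examined. The normal-diet list held 23456 peaks and the deficient-diet list 37661, a ratio of 1.61.

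The promoters of 4 genes are shown because a called peak reached into the 250 bases before a RefSeq start. All lie on the minus strand and are written 5′ to 3′ up to the base before the start, from RefSeq on GRCm38.p6, the same build as mm10. Capitals mark the bases under the peak of the list named.
Gata5, chr2:180334680-180334929, normal diet: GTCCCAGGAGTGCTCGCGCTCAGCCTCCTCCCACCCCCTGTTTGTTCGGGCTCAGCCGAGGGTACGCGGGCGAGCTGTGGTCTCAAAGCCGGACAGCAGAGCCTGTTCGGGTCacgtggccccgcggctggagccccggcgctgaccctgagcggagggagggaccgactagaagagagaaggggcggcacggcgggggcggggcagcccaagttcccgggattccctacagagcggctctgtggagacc
Hopx, chr5:77095268-77095517, second start, normal diet: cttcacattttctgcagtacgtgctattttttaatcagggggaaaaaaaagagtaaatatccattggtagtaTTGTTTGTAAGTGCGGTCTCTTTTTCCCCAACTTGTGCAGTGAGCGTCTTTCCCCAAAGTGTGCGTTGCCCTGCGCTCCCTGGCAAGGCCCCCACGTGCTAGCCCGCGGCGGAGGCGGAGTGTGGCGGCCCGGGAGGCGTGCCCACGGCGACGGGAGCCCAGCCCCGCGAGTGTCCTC
Tbx20, chr9:24774304-24774553, deficient diet: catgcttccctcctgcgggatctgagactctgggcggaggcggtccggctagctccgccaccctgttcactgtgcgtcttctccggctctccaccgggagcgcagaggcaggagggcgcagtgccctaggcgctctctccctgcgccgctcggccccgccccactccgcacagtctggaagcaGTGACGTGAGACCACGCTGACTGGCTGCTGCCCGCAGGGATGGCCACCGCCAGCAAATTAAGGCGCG
Nfatc2, chr2:168601658-168601907, deficient diet: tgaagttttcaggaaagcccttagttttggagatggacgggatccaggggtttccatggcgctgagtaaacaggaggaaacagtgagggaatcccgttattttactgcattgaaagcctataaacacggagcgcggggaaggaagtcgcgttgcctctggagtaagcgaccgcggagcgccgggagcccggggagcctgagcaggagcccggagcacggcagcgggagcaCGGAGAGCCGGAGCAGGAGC
The peak covered 113 of these bases at Gata5, 178 at Hopx, 67 at Tbx20 and 20 at Nfatc2. Half-sites for VDR were searched on both strands of 300 bases per start, 250 before and 50 after, in 21262 promoters of protein-coding genes. The letters AGGTCA occurred in 14.7% of promoters, GGGTCA in 13.7%, GGTTCA in 9.43% and AGTTCA in 12.5%. Any of the 4 was found in 41.2%, and 2 of them in the same direction with 3 bases between them (DR3) in 0.0376%. At Gata5, GGGTCA occurred on the strand shown at -142 to -137 from the start and on the opposite strand at -108 to -103. Of the former, 5 of 6 bases lay under the peak. No half-site was found in these windows of Hopx, Tbx20 and Nfatc2. The table used here had a promoter for 24 of the 41 genes (58.5%), under the 80% set as a minimum, so a comparison of promoter sequence over the group is void.

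Most heart transcription factor genes had a VDR peak in each list. In the normal-diet list, 34 of 41 (82.9%) had at least 1 peak, where 49.8% of all protein-coding genes did. In the deficient-diet list it was 35 of 41 (85.4%), where 59.5% of all protein-coding genes did. A peak in both lists was found at 31 genes (75.6%), beside 40.7% of all coding genes. At 3 genes, Nkx2-5, Tcf21 and Mef2c, neither list had one, beside 31.3% of all coding genes. Hopx, Meis1 and Nfatc4 had a peak in the normal-diet list alone (7.32%, beside 9.17%), and Isl1, Tbx20, Irx5 and Meis2 in the deficient-diet list alone (9.76%, beside 18.8%).

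**Figure D1:**
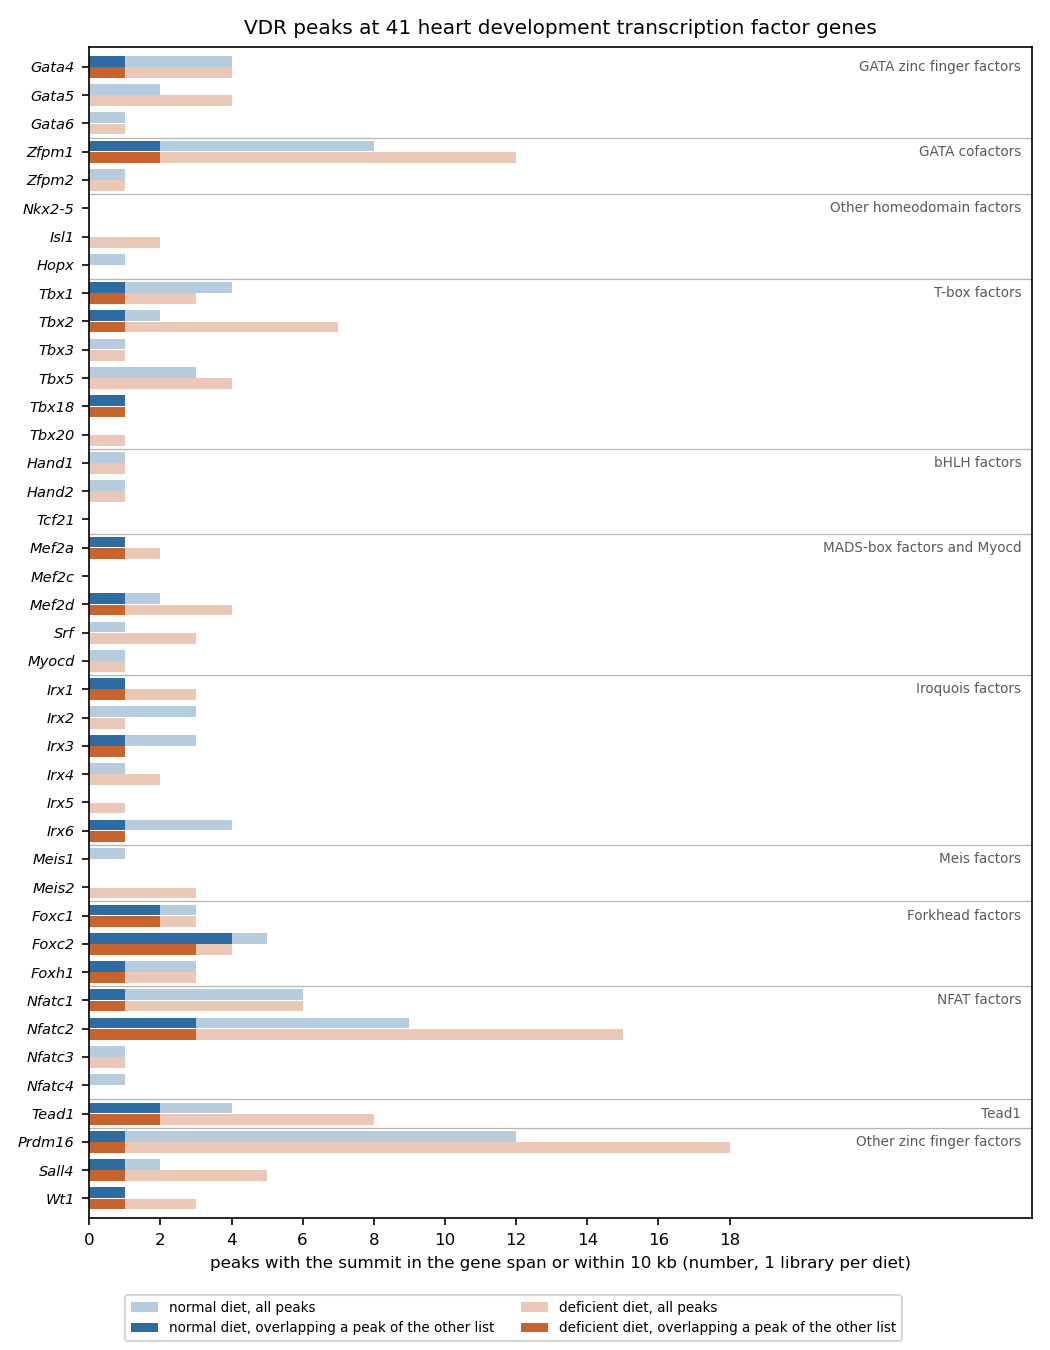
Number of VDR peaks (x axis) at each of the 41 genes (y axis, grouped by family) in the normal-diet and deficient-diet list, with peaks that overlap a peak of the other list in the darker shade. Prdm16 reached 12 and 18 peaks, and Nkx2-5, Tcf21 and Mef2c had none.

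Spans of the group ran from 2725 to 449551 bp, and longer genes have more room for peaks, so the group was set beside coding genes of the same class of span. Among genes under 10 kb, 12 of 15 members had a peak in each list, where 39.1% of coding genes had one in the normal-diet and 47.8% in the other list. Among genes of 10 to 30 kb, 7 of 8 members had one in each list, beside 50.05% and 59.7%. Among genes of 30 to 100 kb, the numbers were 8 and 9 of 9 members, beside 55.1% and 66.6%. Above 100 kb, where 73.4% and 82.0% of coding genes had a peak, 7 of 9 members did in each list. The members thus stood above other coding genes in the 3 classes under 100 kb in both lists, while above 100 kb their share lay above that of coding genes for the normal diet and below it for the deficient one. The shares of all coding genes, applied to the members of each class, came to 21.4 genes for normal diet and 25.3 for deficient diet, against the 34 and 35 found.

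**Figure D2:**
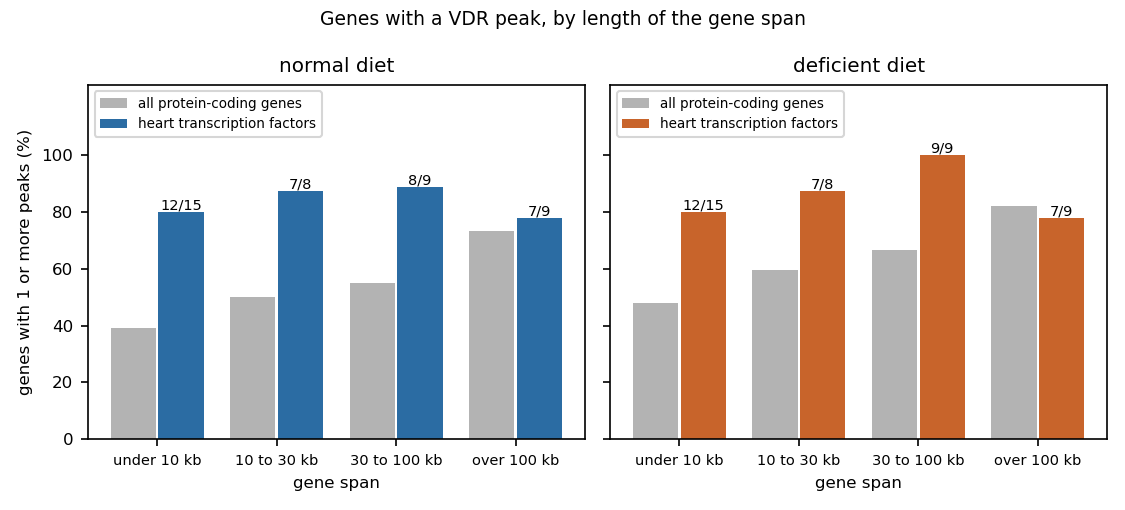
Share of genes with at least 1 VDR peak (y axis, percent) by class of gene span (x axis), for all protein-coding genes in grey and the 41 heart transcription factors in colour, with the number of members above each bar. In the 3 classes under 100 kb the members stood above all coding genes in both lists.

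Raising the threshold to a -log10 q of 5 or more left 17 members (41.5%) with a normal-diet peak and 15 (36.6%) with a deficient-diet peak, beside 24.5% and 25.0% of all coding genes. Counted inside the gene spans alone, 26 members (63.4%) had a normal-diet peak and 30 (73.2%) a deficient-diet one, beside 35.4% and 43.8%. Flanks of 1 kb gave 27 and 32 members, beside 38.3% and 46.7%, and flanks of 50 kb gave 36 and 38, beside 74.5% and 82.9%. With the deficient-diet list shortened to the length of the other, 29 members had one of its peaks, beside 47.2% of all coding genes. At these settings the shares of coding genes were taken over genes of every length and were not adjusted for span class.

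The 41 windows held 95 normal-diet and 131 deficient-diet peaks in 3.47 Mb, which is 2.74 and 3.77 peaks per 100 kb. Over the merged windows of all coding genes the density was 1.22 and 1.93 per 100 kb. Mean numbers of peaks per gene in the 4 span classes, applied to the members, came to 47.0 and 73.1 peaks. The ratio of deficient-diet to normal-diet peaks was 1.38 at the members and 1.58 at all coding genes. The deficient-diet list had more peaks at 18 members (43.9%, beside 38.4% of all coding genes), the normal-diet list at 8 (19.5%, beside 16.7%), and 12 had equal numbers above 0 (29.3%, beside 13.6%). The order of the lists depended on their lengths: with the deficient-diet list shortened to the length of the other, the windows held 78 deficient-diet against 95 normal-diet peaks. At a -log10 q of 5 or more they held 27 against 29.

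Peaks were spread unevenly over the group. The median member had 1 normal-diet and 2 deficient-diet peaks. The 5 genes with most normal-diet peaks held 40 of 95 (42.1%), and the 5 with most in the deficient-diet list held 60 of 131 (45.8%). Over the 41 members the numbers of peaks in the 2 lists had a Spearman rho of 0.69, against 0.58 over all coding genes. Both lists share the same windows, and how far gene length enters this value was not tested. Span itself had a rho of 0.08 with the normal-diet and 0.24 with the deficient-diet number.

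By place, summits were densest near the ends of the genes. Within 1 kb of an end, members had 15 normal-diet peaks, 9.14 per 100 kb, and 23 deficient-diet peaks, 14.0 per 100 kb, where all coding genes had 5.31 and 6.47. Deeper inside the span the density was 2.30 and 3.19, beside 1.06 and 1.79. In the flanks, from 1 to 10 kb outside, it was 2.85 and 3.52, beside 1.80 and 2.72. The members stood above all coding genes in each of the 3 zones and both lists.

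**Figure D3:**
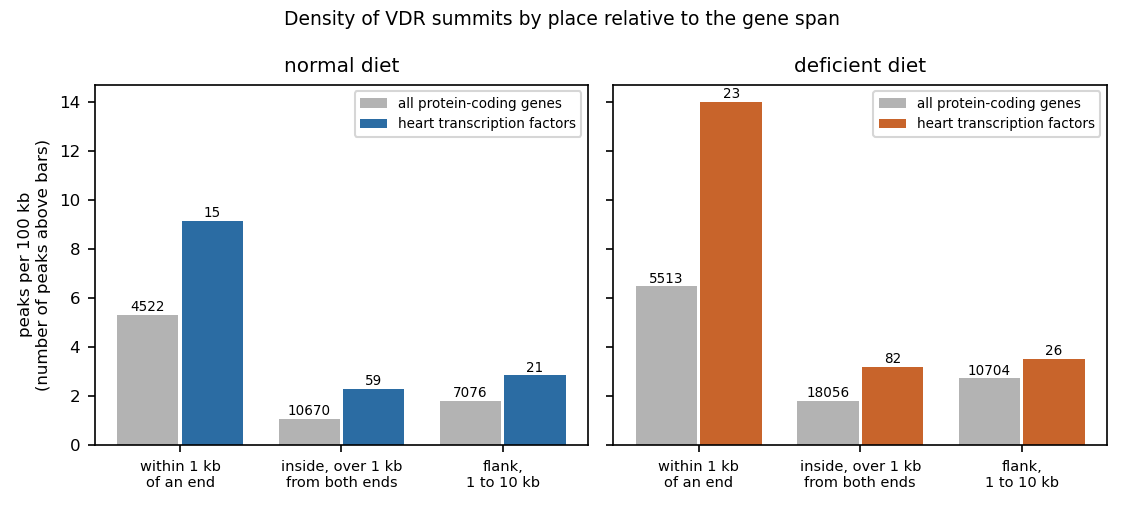
Peaks per 100 kb (y axis) within 1 kb of a gene end, further inside the span and in the flanks (x axis), for all protein-coding genes in grey and the members in colour, with the number of peaks above each bar and each gene counted separately. Near gene ends the members had 9.14 normal-diet and 14.0 deficient-diet peaks per 100 kb.

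The peaks themselves were of ordinary height. Member peaks had a median pileup of 15 fragments (12 to 22) in the normal-diet list, where all peaks had a median of 16, and of 22 fragments (17 to 30) in the deficient-diet list, where the median was also 22. The authors' median fold enrichment, a ratio over local background, was 4.31 beside 4.38 in the normal-diet list and 3.45 in both sets of the deficient-diet list. A -log10 q of 5 or more was reached by 29 of 95 member peaks, 30.5% (exact 95% Clopper-Pearson interval 21.5 to 40.8%), beside 34.95% of the whole normal-diet list. In the deficient-diet list it was 27 of 131, 20.6% (14.0 to 28.6%), beside 24.3%. Both list values lie within these intervals, which cover counting error only. Local background at member peaks was at most 1.94 times the genome-wide value for normal diet and 1.80 times for deficient diet, while over the whole lists it reached 58.4 and 48.3 times. Such maxima depend on the number of peaks, which was far larger for the whole lists. Background at or close to the genome-wide value was found at 50.5% of normal-diet and 45.8% of deficient-diet member peaks, beside 53.2% and 56.3% of the whole lists.

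Peaks shared between the lists were found at 19 of the 41 genes (46.3%), beside 22.6% of all coding genes. They comprised 27 normal-diet peaks, 28.4% (19.6 to 38.6%) of those at members, and 26 deficient-diet peaks, 19.8% (13.4 to 27.7%). The shares over the whole lists were 34.0% and 21.3%, and over peaks at any coding gene 30.5% and 19.4%, all within these intervals. The larger number of members with a shared site thus stood beside a larger number of peaks, with no larger share of them shared. From the normal-diet side, the summits of shared peaks lay a median of 83 bp from the partner's summit (0 to 322 bp), and 10 of 27 within 50 bp. The shares depended on the rule for sharing: overlap by 50% of both peaks left 13.7% of normal-diet and 9.16% of deficient-diet member peaks shared, and summits within 100 bp 15.8% and 11.5%. With a -log10 q of 5 or more asked of both lists they were 6.90% and 7.41%, and at equal list length 17.9% and 20.5%.

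The GATA zinc finger genes encode factors that open and activate heart muscle genes, and all 3 had peaks in both lists. Gata4, needed to form the heart tube and for growth of ventricular muscle, had 4 peaks in each list. Its shared site lay in the flank, 8843 bp outside the span, at chr14:63280440-63280712 in the normal-diet list with 16 fragments and a -log10 q of 4.87. The deficient-diet partner at chr14:63280442-63280683 had 20 fragments and a -log10 q of 3.19, with its summit 5 bp away. The deficient-diet list had 2 further peaks at the upper end of Gata4, chr14:63270958-63271180 and chr14:63271563-63271729, each with 24 fragments, 633 and 44 bp inside the end. The nearest normal-diet summit was 6322 bp from the former and 6911 bp from the latter.
Gata5, which acts in endocardial cells, had 2 normal-diet and 4 deficient-diet peaks, none shared. The strongest normal-diet peak of the whole group lay here, at chr2:180334817-180335017, with 22 fragments, a -log10 q of 8.92 and rank 808 in the list. Its summit was 247 bp before the RefSeq start, and the peak is the one in capitals in the Gata5 promoter above. The nearest deficient-diet summit was 1089 bp away, in the peak chr2:180333709-180333911 with 26 fragments, 842 bp after the start. The other normal-diet peak, chr2:180334028-180334524 with 15 fragments, lay 445 bp after the start, 397 bp from that deficient-diet summit. These 3 peaks also lay inside the span of the antisense gene Gata5os. At the other end of Gata5, 635 bp inside, was the deficient-diet peak chr2:180325620-180326025 with 21 fragments. Gata6 had 1 peak in each list, and the normal-diet one, at chr18:11052744-11053040, lay 389 bp inside the lower end with 19 fragments.
Of the 2 genes for cofactors that bind GATA proteins, Zfpm1 was among the members with the densest peaks, with 8 normal-diet and 12 deficient-diet peaks in a span of 56007 bp. Among coding genes of 30 to 100 kb the mean was 1.15 and 1.84 peaks and the 90th percentile 3 and 5. Zfpm1 had 2 shared sites. The first lay outside the lower end, also inside Gm39269, 4762 bp away for normal diet and 4527 bp for deficient diet, at chr8:122276999-122277206 and chr8:122277160-122277371, with 17 fragments in each list. The second lay near the upper end, at chr8:122336875-122337117 with 15 normal-diet fragments and chr8:122336787-122336960 with 21 deficient-diet fragments, summits 36 bp apart. A further deficient-diet peak, chr8:122338213-122338375, lay 376 bp outside that end, and the strongest normal-diet peak of the gene, chr8:122288118-122288327, had a -log10 q of 7.80 and no partner. Zfpm2, the longest member at 449551 bp, had 1 peak in each list and neither was shared.

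The other homeodomain genes stood at the low end, with 1 of 3 holding a peak in each list and none a shared one. Nkx2-5, an early regulator of heart muscle cells, had no peak. Isl1, which marks progenitors of the second heart field, had no normal-diet peak and 2 deficient-diet peaks. One of these, chr13:116309490-116309680, had 27 fragments and a -log10 q of 6.58 with its summit 120 bp after the RefSeq start, and no normal-diet summit lay within 212645 bp of it. Hopx, a regulator of heart muscle growth that lacks DNA binding of its own, had 1 normal-diet peak, chr5:77095265-77095445, with 21 fragments, its summit 75 bp before its second RefSeq start, and no deficient-diet peak.

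T-box factors set the identity of chambers, valves and conduction tissue. Of the 6 genes, 5 had normal-diet and 6 deficient-diet peaks, 11 and 17 in all, and 3 genes had a shared site. Tbx1, a factor of the outflow tract, had 4 and 3 peaks. The shared site lay outside the upper end at chr16:18591721-18591943 with 15 fragments and chr16:18591629-18591933 with 25. Near its ends lay also a normal-diet peak at chr16:18591318-18591575, 803 bp before the start, and a deficient-diet peak at chr16:18581785-18582070, 900 bp inside the other end. The former summit lay 267 bp from the shared deficient-diet summit, which was 1070 bp before the start. All 3 peaks on that side also lay inside Gm35369.
Tbx2, which holds back chamber genes in the atrioventricular canal, had 2 normal-diet and 7 deficient-diet peaks. Its shared site, 2954 bp outside the upper end, had the same summit position in both lists, at chr11:85844838-85845018 with 14 fragments and chr11:85844804-85844982 with 22. The other deficient-diet peaks included chr11:85831719-85831888, 784 bp outside the lower end. This peak and 3 more on that side lay inside the span of 2610027K06Rik, so they cannot be ascribed to Tbx2 alone. Tbx3, a factor of the conduction system, had 1 peak in each list with no overlap.
Tbx5, needed for the left ventricle and for septation, had 3 and 4 peaks and no shared site. The normal-diet peak chr5:119884197-119884389 had 21 fragments and a -log10 q of 8.67, rank 850 in the list, and lay 941 bp inside the upper end. In the deficient-diet list the peak near an end lay at the opposite end, at chr5:119796635-119796829, with 20 fragments. The deficient-diet summit nearest to the normal-diet one was 959 bp from it and 1900 bp from the upper end, just beyond the 1 kb limit. Tbx18, an epicardial gene, had 1 peak in each list, and they overlapped, at chr9:87729503-87729912 with 15 fragments and chr9:87729745-87730083 with 20, with summits 312 bp apart. Tbx20 had no normal-diet peak and a single deficient-diet one, chr9:24774209-24774370, with 20 fragments, which is close to the list's median of 22. Its summit lay 44 bp before the RefSeq start, in the promoter shown above.

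The bHLH genes had few peaks. Hand1 and Hand2, which act in the left and right ventricle, had 1 peak in each list and none was shared. Near an end lay only the deficient-diet peak of Hand1, chr11:57827782-57828049, with 22 fragments and 776 bp outside the span. Tcf21, a factor of epicardium-derived fibroblasts, had no peak.

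MADS-box factors and the coactivator of Srf encoded by Myocd switch on genes of the contractile apparatus. Of these 5 genes, 4 had peaks in each list, 5 and 10 in all, and Mef2c had none in a span of 163063 bp. Mef2a had a shared site deep inside the gene, at chr7:67274159-67274413 with 14 fragments and chr7:67274214-67274375 with 21, summits 38 bp apart. A further deficient-diet peak of Mef2a, chr7:67373404-67373565, lay 648 bp before the RefSeq start with 20 fragments. Mef2d, with 2 and 4 peaks, had a shared site inside the gene at chr3:88164486-88164666 with 18 fragments and chr3:88164144-88164493 with 21. A deficient-diet peak of Mef2d, chr3:88142823-88143077, lay 559 bp after the RefSeq start with 23 fragments. Srf had 1 normal-diet peak, inside the neighbouring gene Cul9, and 3 deficient-diet peaks, of which chr17:46557520-46557716 lay 659 bp inside an end. Myocd had 1 peak in each list, 3642 bp apart. The normal-diet one, chr11:65270091-65270417, had 19 fragments and lay 324 bp outside the upper end, inside Gm30586.

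The Iroquois genes, of which Irx4 is the best known ventricular marker, were the family with more normal-diet than deficient-diet peaks by the widest margin, 12 against 9. Their density was 7.56 and 5.67 peaks per 100 kb. At Irx1 the single normal-diet peak, chr13:71962923-71963212 with 15 fragments, overlapped 1 of 3 deficient-diet peaks, chr13:71962771-71962939 with 24 fragments, both within 1 kb of the upper end. At Irx3 the shared site lay 3999 and 3983 bp before the RefSeq start, inside the antisense gene Irx3os, at chr8:91805493-91805700 with 18 fragments and chr8:91805372-91805686 with 24, summits 16 bp apart. A normal-diet peak without partner, chr8:91797956-91798157, lay 400 bp beyond the other end of Irx3. Irx6 had 4 normal-diet peaks and 1 deficient-diet peak. The shared one lay inside the gene at chr8:92678131-92678400 with 15 fragments and chr8:92678267-92678467 with 22. The normal-diet peaks chr8:92673785-92673965 and chr8:92674337-92674747, with 15 and 18 fragments, flanked the lower end of Irx6 at 406 and 353 bp. Irx2, with 3 and 1 peaks, Irx4, with 1 and 2, and Irx5, with 0 and 1, had no shared site. The deficient-diet peak chr13:72629071-72629267 of Irx2, with 20 fragments, lay 310 bp after the RefSeq start. At Irx4 chr13:73260978-73261143, with 24 deficient-diet fragments, lay 600 bp after it.

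Meis genes, whose products assist other homeodomain factors, had peaks in 1 list each. Meis1 had 1 normal-diet peak, with 19 fragments, and Meis2 had 3 deficient-diet peaks, with 20 to 30 fragments. Neither gene had a shared site in windows of 385 kb together, and their density of 0.26 and 0.78 peaks per 100 kb was the lowest of the families. Both spans are over 100 kb, where coding genes had a mean of 2.13 and 3.43 peaks.

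The forkhead genes stood at the other extreme, with 15.6 normal-diet and 14.2 deficient-diet peaks per 100 kb in 70.5 kb of window, the highest density of the families in both lists. All 3 spans are under 10 kb, where coding genes had a mean of 0.68 and 0.98 peaks and a 90th percentile of 2 and 3. Over all coding genes, too, summits were denser near gene ends, so density also depends on span. Some of the family's peaks also lay inside other genes: Foxl1 at Foxc2, Gmds at Foxc1, and Kifc2 and Cyhr1 at Foxh1. Every normal-diet peak of Foxh1 lay inside Kifc2. Such peaks cannot be ascribed to the 3 members alone. Shared were 7 of the family's 11 normal-diet and 6 of its 10 deficient-diet peaks, beside 34.0% and 21.3% of the whole lists. Foxc1 and Foxc2 act together in the outflow tract and vessels. Foxc2, the shortest member at 2725 bp, had 5 and 4 peaks, of which 4 and 3 were shared. Inside the gene lay chr8:121116914-121117610 with 17 fragments, paired with chr8:121116997-121117483 with 20, and chr8:121118061-121118241 with 15, paired with chr8:121118129-121118290 with 18. Outside the upper end, in the span of the neighbouring forkhead gene Foxl1, the normal-diet peaks chr8:121127929-121128153 and chr8:121128628-121128921, with 14 fragments each, were set against the deficient-diet peak chr8:121127856-121128498 with 23. The latter overlapped the former of the pair, and the other normal-diet peak had its own partner beyond the window, with a summit 271 bp away. Near the lower end of Foxc2 each list had an unshared peak, chr8:121115069-121115306 with 18 normal-diet fragments and chr8:121116239-121116594 with 19 deficient-diet fragments.
Foxc1 had 3 peaks in each list, 2 of them shared and both outside the span. The first pair lay 4487 and 4718 bp before the RefSeq start, at chr13:31802012-31802192 with 13 fragments and chr13:31801860-31802256 with 24. The second lay beyond the other end, at chr13:31811697-31811943 with 16 fragments and chr13:31811673-31812107 with 23. Foxh1, which relays Nodal signals, had 3 peaks in each list. Its shared site held the second strongest deficient-diet peak of the group, chr15:76666941-76667221, with 30 fragments, a -log10 q of 8.17 and rank 1096. The normal-diet partner, chr15:76666747-76667144, had 14 fragments and a -log10 q of 3.74. Both lay inside the span of Kifc2 as well, the former 740 and the latter 1042 bp outside Foxh1. A deficient-diet peak inside Foxh1, chr15:76668580-76668874, lay 753 bp from an end.

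NFAT factors answer to calcium and calcineurin, and Nfatc1 is needed in the endocardium for the valves. The family had 17 normal-diet and 22 deficient-diet peaks, 4 shared in each list. Nfatc2 alone had 9 and 15 peaks, where coding genes over 100 kb had a mean of 2.13 and 3.43 and a 90th percentile of 5 and 8. Its first shared site, inside the gene at chr2:168503498-168503707, had 20 normal-diet fragments and a -log10 q of 7.68, and the partner chr2:168503532-168503709 had 25 fragments, 41 bp away. The second lay at chr2:168571101-168571356 with 13 fragments and chr2:168571238-168571572 with 22. The third lay at the RefSeq start, with summits 226 bp after the start in the normal-diet list, chr2:168601310-168601524 with 17 fragments, and 7 bp after it in the deficient-diet list, chr2:168601516-168601677 with 21. At the opposite end of Nfatc2 a normal-diet peak without partner, chr2:168475456-168475843, lay 703 bp outside the span.
Nfatc1 had 6 peaks in each list and 1 shared site, at chr18:80707520-80707738 with 18 fragments and chr18:80707674-80707931 with 23. A deficient-diet peak, chr18:80605235-80605425, lay 849 bp outside its lower end. Nfatc3 had 1 peak in each list at opposite ends of the gene, of which the deficient-diet one, chr8:106059866-106060260 with 27 fragments, lay 412 bp after a RefSeq start. Nfatc4 had 1 normal-diet peak in the flank, inside Gm41159, and no deficient-diet one.

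Tead1, the DNA-binding partner of the growth regulator Yap, had 4 normal-diet and 8 deficient-diet peaks. Its 2 shared sites were among the closest matches of the group. At the first, chr7:112779810-112780034 with 13 fragments and chr7:112779586-112780002 with 24, the summits lay 2 bp apart. At the second, chr7:112883819-112884221 with 15 fragments and chr7:112884028-112884192 with 21, they lay 14 bp apart. Near the lower end, 605 bp inside, lay the deficient-diet peak chr7:112679951-112680117 with 20 fragments and a -log10 q of 2.09.
Prdm16, a regulator of compact ventricular muscle, had most peaks of all members in both lists, 12 and 18, or 3.52 and 5.27 per 100 kb of its 341 kb window. Shared was 1 site, beyond the end opposite the RefSeq start, at chr4:154310692-154310910 with 15 fragments and chr4:154310709-154310920 with 22. The other 11 normal-diet and 17 deficient-diet peaks did not overlap. Sall4, a stem cell factor that also acts with Tbx5, had 2 and 5 peaks. Its shared site lay inside the upper end, at chr2:168766799-168767028 with 19 normal-diet fragments, a -log10 q of 6.98 and 292 bp from the end. The partner chr2:168766844-168767113 was the strongest deficient-diet peak of the group, with 30 fragments, a -log10 q of 8.91, rank 690 and 229 bp from the end. Both lay inside the overlapping gene Gm14261. Wt1 had 1 and 3 peaks, with a shared site inside the gene at chr2:105130732-105130912 with 16 fragments and chr2:105130449-105130890 with 21.

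**Figure D4:**
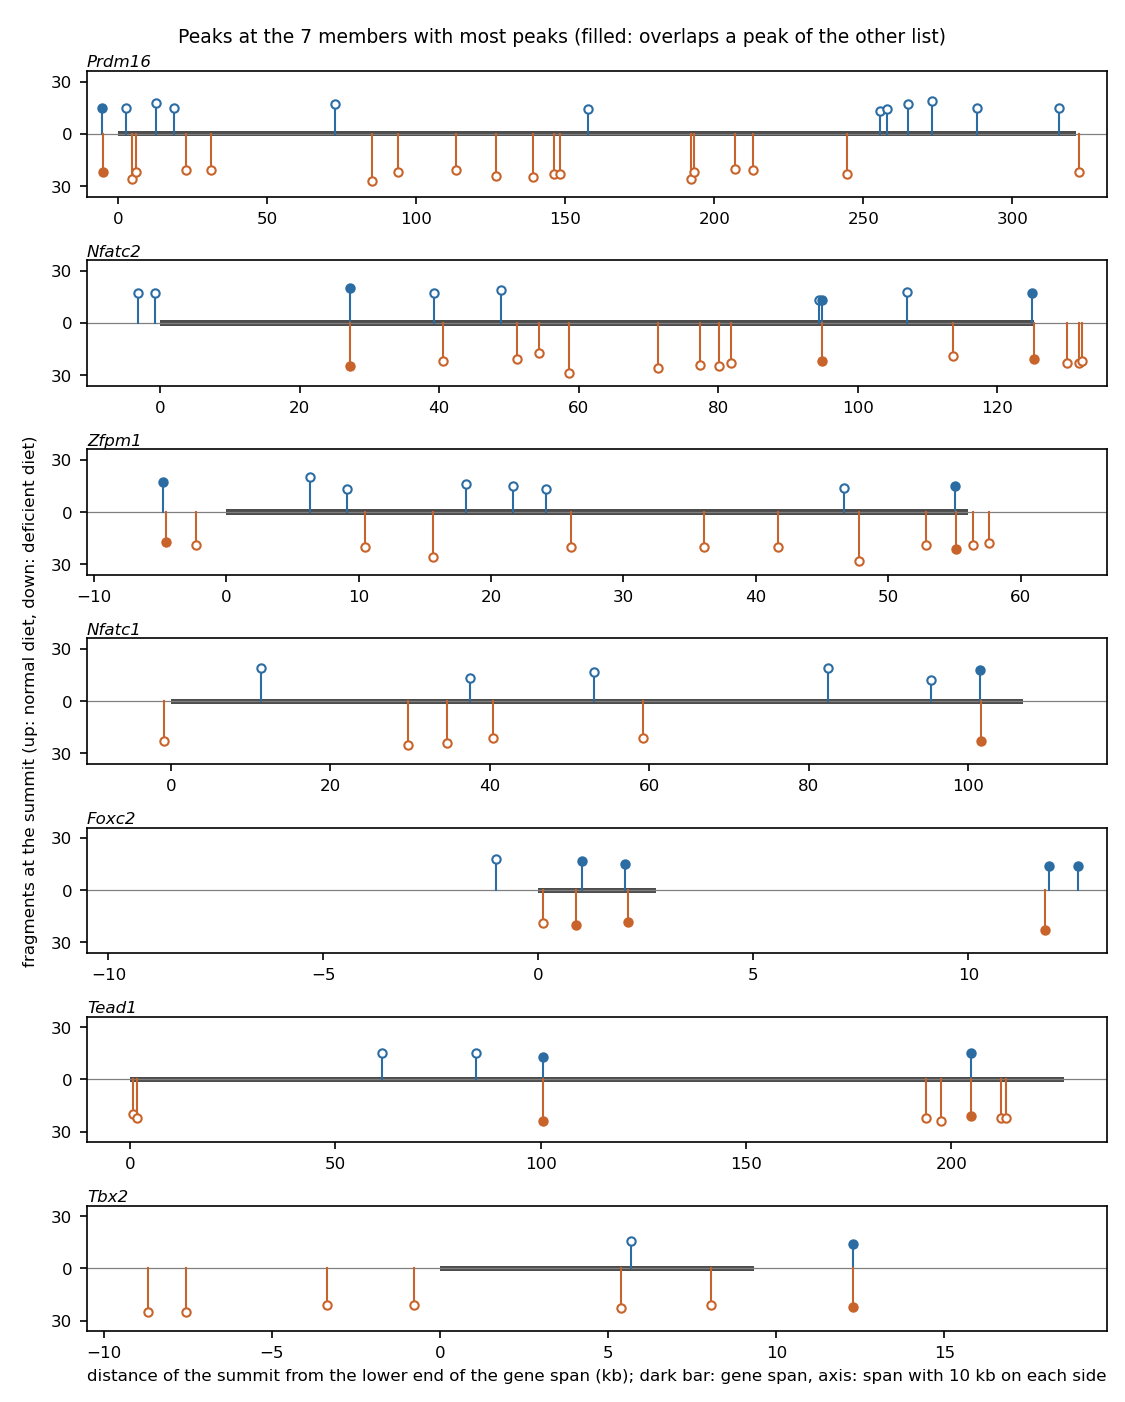
Peaks at the 7 genes with most peaks in either list, by distance of the summit from the lower end of the span (x axis, kb) and number of fragments at the summit (y axis, normal diet upward, deficient diet downward), with filled points for peaks that overlap a peak of the other list. At Foxc2 most points are filled, 4 of 5 and 3 of 4, and at Prdm16 1 of 12 and 1 of 18.

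Across the group, 12 members (29.3%) had a normal-diet summit within 1 kb of either end of the span, beside 18.5% of all coding genes, and 18 (43.9%) a deficient-diet one, beside 21.9%. Either list had one at 22 members (53.7%, beside 32.0%) and both lists at 8 (19.5%, beside 8.41%). At 5 of these, Zfpm1, Irx1, Foxc2, Nfatc2 and Sall4, the near-end peaks of the lists overlapped. At the other 3, Gata5, Tbx1 and Tbx5, they lay at opposite ends of the gene, although each of the 3 also had summits of both lists within 1 kb of each other. Within 3 kb of an end the numbers were 20 and 27 members, beside 28.6% and 34.8%. The span table gives no strand, so ends stand for starts here. Among the 24 members with a RefSeq start in the promoter table, 4 (Gata5, Hopx, Tbx1 and Nfatc2) had a normal-diet summit within 1 kb of a start. That share was near the 17.1% of coding genes. The higher normal-diet share at ends of the span was counted over all members, and these starts over 24 of them. Gata6, Tbx5, Myocd, Irx1, Irx6, Foxc2 and Sall4 had a normal-diet summit near an end but no RefSeq start given. Ends and starts were therefore not compared in the same genes. A deficient-diet summit within 1 kb of a start was found at 9 of the 24, beside 18.8% of coding genes. Those 9 were Gata5, Isl1, Tbx20, Mef2a, Mef2d, Irx2, Irx4, Nfatc2 and Nfatc3. The 24 members are 58.5% of the group, under the 80% set as a minimum, so no comparison over the group rests on starts. For ends of the span, the higher deficient-diet number did not hold under a stricter threshold or with lists of equal length, and the counts at RefSeq starts were not recomputed under these settings. Within 1 kb of an end, 7 and 4 members had a peak with -log10 q of 5 or more, beside 6.69% and 5.40% of coding genes. Equal lengths gave 12 and 11, beside 18.5% and 14.2%.

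Other heart genes were counted by the same rule, in lists also chosen with earlier results of these data known. Of 45 further heart transcription factors and cofactors, such as Hey2, Sox9 and Twist1, 30 (66.7%) had a normal-diet and 29 (64.4%) a deficient-diet peak, where span classes gave 21.9 and 26.1 genes. Of 26 heart muscle genes on which these factors act, such as Nppa, Myh6 and Tnnt2, 13 and 17 had one, where span classes gave 12.8 and 15.3. The shares of the 41 members, 82.9% and 85.4%, were the highest of the 3 lists by this count, and those of the muscle genes were near the shares of all coding genes. The order differed by other counts. At a -log10 q of 5 or more, 42.2% of the further transcription factors had a deficient-diet peak, against 36.6% of the members, and 35.6% a normal-diet peak, against 41.5%. Muscle genes stood above all coding genes at that threshold, with 34.6% for normal diet and 30.8% for deficient diet, beside 24.5% and 25.0%. Near an end, within 1 kb, 15 of 45 further transcription factors (33.3%) had a summit in each list, against 29.3% of the members for normal diet and 43.9% for deficient diet, and 3 and 4 of 26 muscle genes did. Shared peaks within 1 kb of an end occurred in the former list at Shox2, Msx1, Sox9 and Sox11, with 15 to 18 normal-diet fragments and 20 to 23 deficient-diet ones, and at none of the muscle genes.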

How the data were processed

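The authors deposited 1 peak list per library in narrowPeak layout on mm10, per the file headers. MACS2 and SAMtools are named in the submitters' processing notes. The control library, threshold and versions are not given in the sources used here. The deposited fold enrichment is a ratio over local background, and the deposited -log10 p and -log10 q belong to each peak. The deposited integer score was not used. In the normal-diet list, an end and score joined by a point were taken apart. One peak that had lost its start was left out.

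Summit pileup and background were recovered from fold enrichment and -log10 p under a Poisson model. The best whole number missed the deposited -log10 p by at most 0.000293. Gene spans and promoters came from RefSeq (GRCm38.p6). All 41 symbols matched. A design step meant to use random genes matched on span was replaced by all coding genes of the same span class. The members and lists were chosen with earlier results of these data known. Every member was accounted for. Named peaks are those with a partner, those within 1 kb of an end or of a RefSeq start, and the 3 of each list with the highest -log10 q. Computations used Python 3.11.15 and SciPy 1.17.1, and the functions were tested on simulated data. No test between diets was run.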

Additional observations from a re-analysis of the deposited data

How the results depend on the processing

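No paired analysis was possible because there was only 1 library for either diet, and leaving one out ends the comparison. Of 40 recomputed values of 8 results, 22 stayed within 1.5 times of a count or within the 95% interval of a share, and 18 did not. At a -log10 q of 5 or more, fewer peaks remain by construction: 17 members had a normal-diet and 15 a deficient-diet peak, with 29 and 27 peaks, of which 6.90% and 7.41% had a partner, and 7 and 4 members had one near an end. At equal list length there were 78 deficient-diet member peaks and 11 members with one near an end, while 17.9% of normal-diet member peaks had a partner. Flanks of 50 kb held 165 and 246 peaks, by construction more. Within 3 kb of an end, 20 members had a normal-diet peak. Overlap by 50% of both peaks left 13.7% and 9.16% shared, and summits within 100 bp 15.8% and 11.5%, both stricter by construction. The members' share with a peak was above that of coding genes in both lists without flanks, with flanks of 1 and 50 kb, at the higher threshold and at equal length. The shares of coding genes at these settings were not adjusted for span class. Pileups of 12 to 30 fragments at member peaks limit what these lists resolve.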

Other observations

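Members without a peak differed in how far the nearest summit lay. For Tcf21 it was just outside the window in both lists, at a shared site 13.7 kb from the gene, chr10:22803268-22803605 with 17 normal-diet fragments and chr10:22803166-22803650 with 31 deficient-diet fragments. For Nkx2-5 the nearest normal-diet summit lay 29.6 kb away, in a peak without partner. The nearest deficient-diet summit lay 46.3 kb away, in a peak shared with the normal-diet list. For Mef2c the nearest normal-diet summit was 683 kb from the gene, and the nearest deficient-diet summit 58.1 kb.

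The genes with a peak in 1 list alone were also far from any summit of the other list in some cases. The nearest normal-diet summit was 201 kb from Isl1, 179 kb from Tbx20, 88.7 kb from Meis2 and 70.7 kb from Irx5. Of these, only the peak nearest Meis2, with 33 fragments, was shared. That nearest Tbx20 had 127 fragments, where the 90th percentile of the list was 20. The nearest deficient-diet summit was 65.1 kb from Hopx, 63.1 kb from Meis1 and 34.5 kb from Nfatc4, and only the peak nearest Meis1, with 30 fragments, was shared. Of the 68 normal-diet member peaks without a partner, 6 had a deficient-diet summit within 1 kb, and of the 105 deficient-diet ones, 5 had a normal-diet summit that near.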
